A study of Mus musculus with 15 samples.

Results

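Matrix metalloproteinases are zinc proteases that cut collagens, laminins and other matrix proteins, and tissue inhibitors of metalloproteinases, the TIMPs, bind their active sites. Some of these proteases are secreted and others sit in the cell membrane, and most are made as inactive precursors that another protease must open. In liver they take part in the remodelling of matrix during injury, in the release of growth factors and in the scarring that follows, and stellate cells, macrophages and bile duct cells are all known to make some of them. The genes described here are the proteases Mmp2, Mmp7, Mmp14, Mmp15 and Mmp19 and the inhibitors Timp1, Timp2 and Timp3. They were taken by name from a table of 24493 genes, so they are 8 genes of 24493.

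The table came from RNA sequencing of 15 libraries of cells sorted from mouse liver, in 5 groups of 3. The groups were reprogrammed cells, biliary cells and hepatocytes of mice fed DDC chow, and biliary cells and hepatocytes of untreated mice. DDC, given in the chow, damages bile ducts and liver parenchyma. Every mouse, untreated mice included, received AAV-TBG-Cre when 4 weeks old. This virus expresses Cre recombinase under the hepatocyte promoter TBG and served to label cells. DDC mice started DDC chow when 5 weeks old and ate it for 4 weeks. The sample details used here give no age at collection for the untreated mice, so whether ages matched is unknown. The title of the series calls the reprogrammed cells reprogrammed hepatocytes. The labels give no strain, no reporter allele and no markers for the sort, and they do not say that the libraries of a group came from separate animals, so each p-value measures the spread between these libraries, which may be technical.

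Levels are given in scaled TPM, the TPM abundance unit after 1 scale factor per library, which is a level per transcript length and can be set side by side between genes. Differences are log2 differences of scaled TPM + 1 from limma, with a Benjamini-Hochberg adjusted p over the 13905 genes that had at least 1 TPM in at least 3 libraries. A gene is said to rise, fall, be higher or be lower in a test where its log2 difference was 1 or more in size with an adjusted p below 0.05. Mmp2 did not reach 1 TPM in 3 libraries, so 7 of the 8 genes were tested. TPM keep no read total, so the depth behind a value is unknown.

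The promoters of Mmp7, Timp1 and Timp3 are printed because these 3 genes rose in DDC biliary cells. Each sequence is the 250 bases before the start of the gene in RefSeq, build GRCm38.p6, read 5′ to 3′ on the strand of the gene, which is the plus strand for all 3. The windows are chr9:7691840-7692089 for Mmp7, chrX:20869916-20870165 for Timp1 and chr10:86300162-86300411 for Timp3. Mmp7 had 2 windows, and the one nearest the gene start in GENCODE was taken. The Timp3 window runs past the GENCODE start at 86300372, so its last bases, with the Sp1 match, lie inside the GENCODE gene. Capitals mark matches on either strand to the AP-1 letters TGANTCA, the ETS-family letters AGGAAG, called PEA3, the TEAD letters GGAATG, the TATA box letters TATAAA and the Sp1 letters GGGCGG.
Mmp7: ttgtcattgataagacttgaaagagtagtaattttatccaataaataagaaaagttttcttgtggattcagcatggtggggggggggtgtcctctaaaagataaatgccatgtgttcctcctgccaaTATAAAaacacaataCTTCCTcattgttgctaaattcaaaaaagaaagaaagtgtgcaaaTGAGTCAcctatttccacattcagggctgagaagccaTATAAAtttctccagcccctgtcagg
Timp1: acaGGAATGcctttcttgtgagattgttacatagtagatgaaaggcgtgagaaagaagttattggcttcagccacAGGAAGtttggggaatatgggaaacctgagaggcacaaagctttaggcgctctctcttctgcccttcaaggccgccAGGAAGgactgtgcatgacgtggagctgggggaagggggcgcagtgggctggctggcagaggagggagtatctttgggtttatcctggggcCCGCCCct
Timp3: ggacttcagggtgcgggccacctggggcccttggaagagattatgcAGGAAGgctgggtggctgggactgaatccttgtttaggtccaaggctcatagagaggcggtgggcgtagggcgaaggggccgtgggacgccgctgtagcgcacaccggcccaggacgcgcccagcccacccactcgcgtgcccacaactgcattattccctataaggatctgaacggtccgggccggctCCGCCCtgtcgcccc
The Mmp7 window held 1 AP-1 match, 63 bases before the start, 1 PEA3 match 108 bases before it and 2 TATA matches, the nearer one 26 bases before it. The Timp1 window held 2 PEA3 matches, at 175 and 99 bases, 1 TEAD match at 247 bases and 1 Sp1 match at 8 bases. The Timp3 window held 1 PEA3 match at 204 bases and 1 Sp1 match at 15 bases. Of 32851 windows of the same length in the table, 6.75% held the AP-1 letters, 29.5% PEA3, 12.6% TEAD, 12.4% TATA and 32.7% Sp1, and the STAT letters TTCNNNGAA, found in 7.02%, were in none of the 3. Windows were found for 6 of the 8 genes, not for Mmp2 and Mmp19, and a match of letters is a description of the sequence.

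In GRCm38, with GENCODE M21 annotation, all 8 genes are protein-coding. Mmp2 lies at chr8:92827291-92853420 and Mmp15 at chr8:95352268-95375080, Mmp7 at chr9:7692090-7699585, and Mmp14 at chr14:54431612-54445364. Mmp19 lies at chr10:128790910-128800824 and Timp3 at chr10:86300372-86349506, Timp2 at chr11:118301069-118355740, and Timp1 at chrX:20870166-20874735. Timp1 lies within Syn1 and Timp3 within Syn3, each on the opposite strand, Timp2 contains Cep295nl on its own strand, and Mmp7 and Mmp19 each overlap an antisense gene. Whether the library kit kept strand is not stated. The highest level of any library was 0.368 scaled TPM for Syn1, 3.04 for Syn3, 0.678 for Cep295nl and 0.572 for AV064505, the antisense partner of Mmp7. Mmp19 overlaps the end of Tmem198b, which read between 2.37 and 7.73 scaled TPM, and its antisense partner Gm47093 was not analysed here.

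Markers were checked first, and the sums that follow are over 10 hepatocyte and 10 biliary markers. Summed biliary markers were between 4448 and 10695 scaled TPM in reprogrammed cells, 7895 and 12926 in the DDC biliary cells, 286 and 604 in DDC hepatocytes, 10527 and 12197 in untreated biliary cells, and 18.3 and 24.9 in untreated hepatocytes. Summed hepatocyte markers were between 27627 and 80687 scaled TPM in reprogrammed cells, 14045 and 32106 in the DDC biliary cells, 87805 and 162230 in DDC hepatocytes, 34242 and 44944 in untreated biliary cells, and 176057 and 201136 in untreated hepatocytes. Library 2 of the reprogrammed cells had the highest hepatocyte sum and the lowest biliary sum of its group. In cells sorted in bulk, fewer cells of a type and less RNA per cell cannot be told apart.

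Mmp7, matrilysin, is a secreted epithelial protease with a short structure that lacks the haemopexin-like domain of most of its relatives. It had 376, 427 and 434 scaled TPM in the 3 libraries of reprogrammed cells, 847, 1016 and 1014 in the DDC biliary cells, and 1.57, 2.98 and 1.93 in DDC hepatocytes. It had 28.4, 18.2 and 25.8 scaled TPM in untreated biliary cells and was listed at 0 in all 3 libraries of untreated hepatocytes. No group overlapped the next in this order of levels, so Mmp7 separated all 5 groups.

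Mmp14, also called MT1-MMP, is a membrane-bound collagenase that opens the precursor of Mmp2. It had 115, 111 and 150 scaled TPM in reprogrammed cells, 99.5, 120 and 135 in the DDC biliary cells, 75.6, 82.3 and 84.1 in DDC hepatocytes, 70.3, 72.2 and 81.0 in untreated biliary cells, and 25.2, 25.9 and 23.2 in untreated hepatocytes. Reprogrammed and DDC biliary cells overlapped, DDC hepatocytes overlapped untreated biliary cells, and untreated hepatocytes lay below every other library. Mmp15, or MT2-MMP, is a close membrane-bound relative. It had 62.7, 42.1 and 58.8 scaled TPM in reprogrammed cells, 51.3, 60.6 and 64.7 in the DDC biliary cells, 87.8, 24.0 and 23.0 in DDC hepatocytes, 68.6, 68.8 and 80.0 in untreated biliary cells, and 33.6, 38.3 and 20.9 in untreated hepatocytes. Library 1 of the DDC hepatocytes stood far above the other 2 libraries of its group, which lay within the range of untreated hepatocytes.

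Mmp19 is a secreted protease that cuts basement membrane proteins. It had 17.8, 20.6 and 20.3 scaled TPM in reprogrammed cells, 11.7, 8.20 and 7.40 in the DDC biliary cells, 54.8, 35.8 and 58.7 in DDC hepatocytes, 13.2, 10.04 and 11.7 in untreated biliary cells, and 64.9, 62.9 and 73.5 in untreated hepatocytes. Of the 8 genes only Mmp19 had its highest group mean in hepatocytes. Mmp2, gelatinase A, is made in injured liver mainly by stellate cells and fibroblasts. It had 0.299, 0.254 and 1.23 scaled TPM in reprogrammed cells, 0.473, 0.593 and 1.14 in the DDC biliary cells, 0, 0.144 and 0.139 in DDC hepatocytes, 0.221, 0.260 and 0.0891 in untreated biliary cells, and 0 in all 3 libraries of untreated hepatocytes. Every neighbouring pair of groups in order of mean overlapped, while the DDC biliary libraries lay above the untreated biliary ones. In a fit without the filter on low values, log2 differences of Mmp2 were under 1 in size, so it passed in no comparison. With group means of at most 0.735 scaled TPM and 1 added before the log, a difference of 1 was out of reach. The limma adjusted p was 0.0139 for DDC biliary cells against DDC hepatocytes and 0.0185 for reprogrammed cells against untreated hepatocytes.

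Timp1 is a secreted inhibitor that rises in many injured tissues and inhibits the membrane-bound proteases weakly. It had 15.7, 8.17 and 16.6 scaled TPM in reprogrammed cells, 14.4, 12.9 and 18.3 in the DDC biliary cells, 3.50, 1.38 and 5.66 in DDC hepatocytes, 0.209, 1.09 and 0.329 in untreated biliary cells, and 0 in all 3 libraries of untreated hepatocytes. Every DDC library lay above every untreated library. Timp2 inhibits Mmp14 and also forms the bridge by which Mmp14 captures the Mmp2 precursor. It had 85.7, 56.4 and 75.8 scaled TPM in reprogrammed cells, 118, 113 and 143 in the DDC biliary cells, 1.24, 0.684 and 0.739 in DDC hepatocytes, 95.3, 105 and 119 in untreated biliary cells, and 0.119, 0.142 and 0.0956 in untreated hepatocytes. The 2 biliary groups overlapped and both hepatocyte groups lay far below them. Timp3 binds to the matrix and also inhibits ADAM17, the protease that releases Tnf from the cell surface. It had 33.7, 34.5 and 29.5 scaled TPM in reprogrammed cells, 52.4, 73.2 and 67.8 in the DDC biliary cells, 0.823, 0.842 and 0.963 in DDC hepatocytes, 13.9, 12.1 and 18.2 in untreated biliary cells, and 0.181, 0.325 and 0.0200 in untreated hepatocytes. No 2 neighbouring groups overlapped for Timp3.

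**Figure D1:**
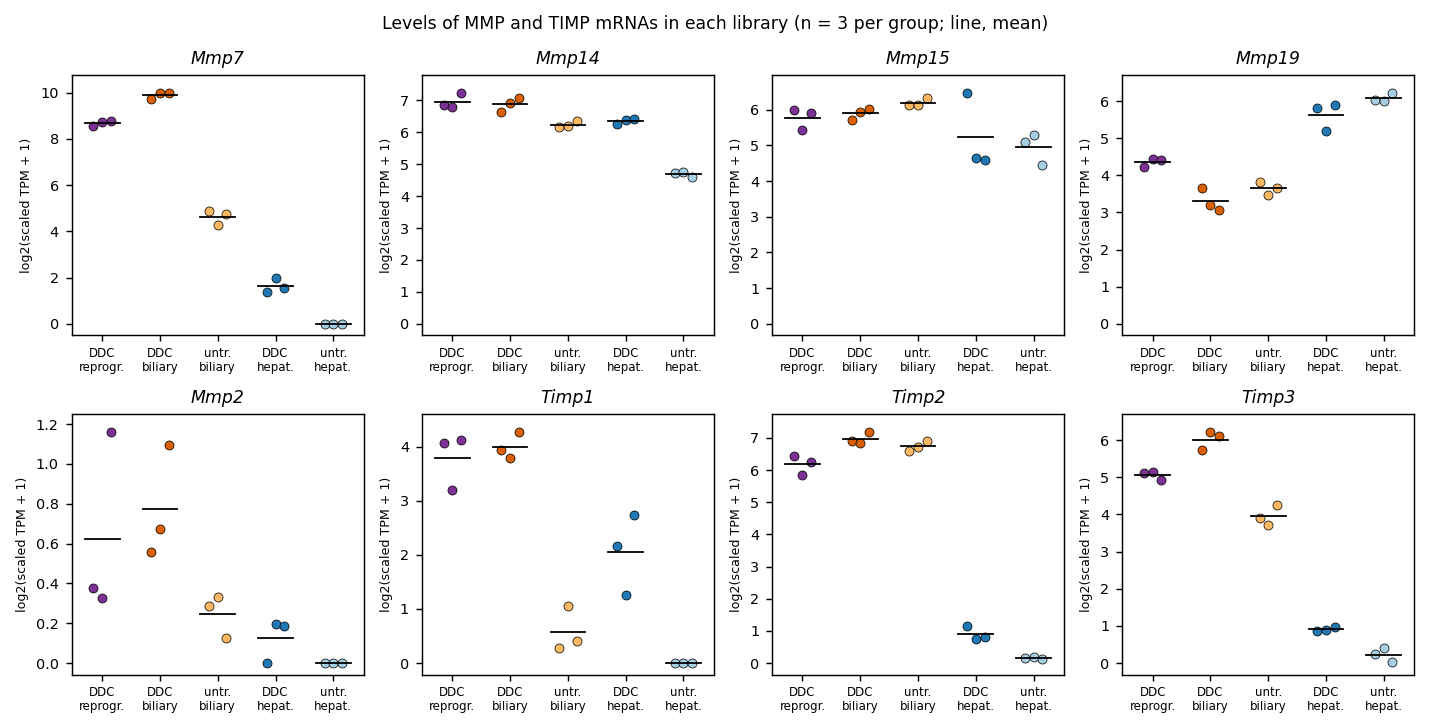
Levels of the 8 genes as log2(scaled TPM + 1), 1 panel per gene, with 1 point per library, 3 libraries per group and a line at each group's mean on this scale; each panel has its own vertical axis. Mmp7 ran between 847 and 1016 scaled TPM in DDC biliary cells and was at 0 in untreated hepatocytes, Timp2 was low in both hepatocyte groups, and Mmp19 was highest in untreated hepatocytes.

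The untreated groups show which genes marked each cell type without injury. Of the 7 genes tested, 5 were higher in untreated biliary cells than in untreated hepatocytes and 1 was lower, where 37.2% of all tested genes passed either way, 21.6% higher and 15.6% lower. The median log2 difference was 1.55 over the 7 genes and 0.12 over all genes tested. Timp2 averaged 106 ± 11.7 scaled TPM in untreated biliary cells and 0.119 ± 0.0234 in the untreated hepatocytes (SD, n = 3 each), 894-fold, with a log2 difference of 6.58 (SE 0.16, limma adjusted p = 1.89e-11). Timp3 averaged 14.7 ± 3.11 scaled TPM in untreated biliary cells and 0.175 ± 0.153 in the untreated hepatocytes (log2 difference 3.73, SE 0.16, adjusted p = 9.40e-10).
Mmp14 averaged 74.5 ± 5.70 scaled TPM in untreated biliary cells and 24.8 ± 1.43 in the untreated hepatocytes, 3.01-fold (log2 difference 1.55, SE 0.13, adjusted p = 4.34e-07). Mmp7, with hepatocytes at 0, passed with an adjusted p of 2.23e-10. Mmp15 averaged 72.5 ± 6.53 scaled TPM in untreated biliary cells and 30.9 ± 8.97 in the untreated hepatocytes (log2 difference 1.24, SE 0.40, adjusted p = 0.0150). Without library 3 of the untreated hepatocytes that difference was 0.98 (adjusted p = 0.0687) and did not pass. Mmp19 was lower, at 11.6 ± 1.59 scaled TPM in untreated biliary cells against 67.1 ± 5.63 in untreated hepatocytes (log2 difference -2.43, SE 0.19, adjusted p = 2.05e-07). Timp1 did not pass (adjusted p = 0.157), with hepatocytes at 0, and passed with a pseudocount of 0.1 (adjusted p = 0.00116).

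The scaling matters for comparisons between cell types. With TPM as deposited the median gene lay 1.11 higher on the log2 scale in untreated biliary cells than in untreated hepatocytes, 1.06 higher in DDC biliary cells than in DDC hepatocytes and 0.71 higher in reprogrammed cells than in the DDC hepatocytes. It lay 0.93 higher in reprogrammed cells than in untreated hepatocytes, 0.34 lower in reprogrammed than in DDC biliary cells, and 0.17 higher in DDC than in untreated hepatocytes. All differences here are relative to that shift.
Genes higher and lower over the whole table numbered 2999 and 2173 for untreated biliary cells against hepatocytes, and 7350 and 470 with TPM as deposited. They numbered 2811 and 1999 for the same cell types under DDC, and 7142 and 645 as deposited. For reprogrammed cells they numbered 1906 and 802 against DDC hepatocytes, with 4240 and 9 as deposited, 2860 and 1736 against untreated hepatocytes, with 6356 and 446 as deposited, and 386 and 102 against DDC biliary cells, with 120 and 576 as deposited. For DDC against untreated hepatocytes they numbered 917 and 615, with 1036 and 360 as deposited. Of the directions that passed for the 7 genes, none turned round with TPM as deposited, but Mmp19 no longer passed in reprogrammed cells against DDC hepatocytes (log2 difference -0.51), untreated hepatocytes (-0.69) or DDC biliary cells (0.77).

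The DDC response of biliary cells is the difference between the biliary cells of DDC mice and those of untreated mice. Mmp7, Timp1 and Timp3 rose, none of the 7 genes fell and 4 did not pass, where 10.4% of all tested genes passed, 5.68% higher and 4.74% lower. Their median was 0.65 on the log2 scale over the 7 genes and -0.02 over all genes. Mmp7 averaged 959 ± 96.9 scaled TPM in DDC biliary cells and 24.1 ± 5.30 in untreated biliary cells (SD, n = 3 each), 39.8-fold, with a log2 difference of 5.27 (SE 0.17, limma adjusted p = 1.05e-09). Timp1 averaged 15.2 ± 2.80 scaled TPM in DDC biliary cells and 0.542 ± 0.477 in untreated ones, 28.0-fold (log2 difference 3.42, SE 0.35, adjusted p = 1.82e-05). Timp3 averaged 64.5 ± 10.8 scaled TPM in DDC biliary cells and 14.7 ± 3.11 in untreated ones, 4.38-fold (log2 difference 2.06, SE 0.16, adjusted p = 2.0e-06).
The groups did not overlap for any of these 3 genes, nor for Mmp14 and Mmp15, which did not pass. The share of all tested genes without overlap was not counted. Mmp14 was 1.59-fold higher in mean, with an adjusted p of 0.00305 but a log2 difference of 0.65, short of 1. Timp2 had a log2 difference of 0.23 with a 95% interval between -0.12 and 0.58, and Mmp15 and Mmp19 had -0.30 and -0.34, with adjusted p-values of 0.621 and 0.211.

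The DDC response of hepatocytes included Mmp14. Mmp14, Mmp7 and Timp1 rose in DDC hepatocytes against untreated hepatocytes and none of the 7 genes fell, where 11% of all tested genes passed, 6.59% higher and 4.42% lower. Log2 differences had a median of 0.74 over the 7 genes and 0.01 over all genes. Mmp14 averaged 80.7 ± 4.52 scaled TPM in DDC hepatocytes and 24.8 ± 1.43 in untreated hepatocytes, 3.26-fold (log2 difference 1.66, SE 0.13, adjusted p = 1.96e-06).
Mmp7 averaged 2.16 ± 0.736 scaled TPM and Timp1 3.52 ± 2.14 in DDC hepatocytes, and both were listed at 0 in every untreated hepatocyte library (adjusted p = 2.68e-05 and 0.000860). Neither passed with a pseudocount of 5 (log2 differences 0.51 and 0.74). Timp2 and Timp3 had log2 differences of 0.74 (adjusted p = 0.00442) and 0.68 (adjusted p = 0.00785), short of 1, and passed with a pseudocount of 0.1, at 2.14 and 2.0. Mmp19 had -0.45 (adjusted p = 0.0967). Mmp15 had 0.28 (adjusted p = 0.662), and -0.34 without library 1 of the DDC hepatocytes (adjusted p = 0.300).

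The difference between the 2 responses was tested as an interaction, the DDC response of biliary cells minus that of hepatocytes. It passed for 3 of the 7 genes, 2 with a larger response in biliary cells and 1 with a smaller one, where 8.4% of all tested genes passed, 3.46% with a larger response in biliary cells and 4.94% with a smaller one. It was 3.64 for Mmp7 (SE 0.25, limma adjusted p = 2.61e-06) and 1.38 for Timp3 (SE 0.23, adjusted p = 0.00166). It was -1.01 for Mmp14 (SE 0.19, adjusted p = 0.00301), which rose 3.26-fold in hepatocytes. As a ratio of the DDC mean to the untreated mean, Timp3 had 4.38 in biliary cells and 4.99 in hepatocytes. Its hepatocyte means were 0.876 and 0.175 scaled TPM, low beside the 1 that is added before the log. Each of the 3 depended on a setting, since with a pseudocount of 0.1 Mmp7 had 0.88 (adjusted p = 0.0743) and Timp3 0.13 (adjusted p = 0.929), and with quantile normalization Mmp14 had -0.52 (adjusted p = 0.180). Mmp14 was also short of 1 with a pseudocount of 5 (-0.90), with sample weights (-0.94) and without library 3 of the untreated biliary cells (-0.95), library 3 of the untreated hepatocytes (-0.97), library 1 of the DDC biliary cells (-0.90) or library 2 or 3 of the DDC hepatocytes (-0.9998 and -0.98). Timp1 had an interaction of 1.37 (adjusted p = 0.0934), which passed without library 3 of the DDC hepatocytes (1.71), with TPM as deposited (2.11) and with a pseudocount of 5 (1.12), and was -0.16 with a pseudocount of 0.1. Timp2 had -0.51 (adjusted p = 0.180), and -1.90 with a pseudocount of 0.1, which passed.

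**Figure D2:**
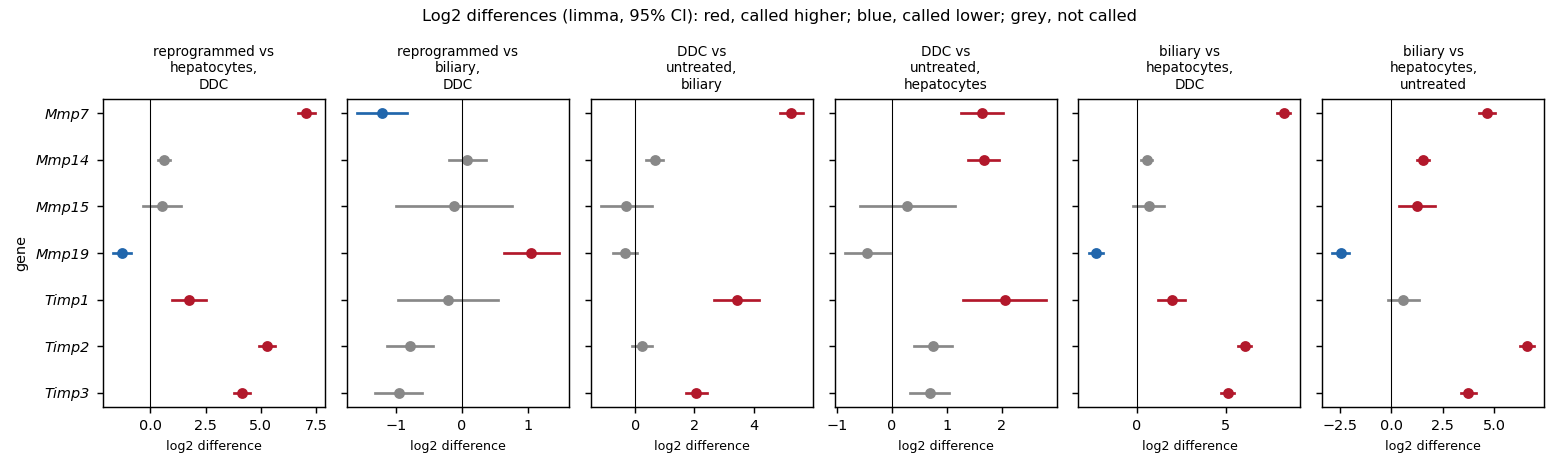
Log2 differences of the 7 tested genes in comparisons between groups, 1 panel per comparison with its own horizontal axis. The comparison of reprogrammed cells with untreated hepatocytes is not drawn. Points are limma estimates with 95% intervals, red where higher and blue where lower by the test, and grey where the test was not passed. Mmp7 differed by 5.27 between DDC and untreated biliary cells, and Mmp19 lay below 0 in biliary and reprogrammed cells against hepatocytes.

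Reprogrammed cells were set against DDC hepatocytes, the cell type that the title gives as their origin. Mmp7, Timp1, Timp2 and Timp3 were higher in reprogrammed cells and Mmp19 was lower, 5 of the 7 genes tested, where 19.5% of all tested genes passed, 13.7% higher and 5.77% lower. The median log2 difference was 1.75 over the 7 genes and 0.06 over all genes. Timp2 averaged 72.6 ± 14.9 scaled TPM in reprogrammed cells and 0.887 ± 0.305 in DDC hepatocytes, 81.8-fold (log2 difference 5.28, adjusted p = 2.63e-10). Timp3 averaged 32.5 ± 2.69 scaled TPM in reprogrammed cells and 0.876 ± 0.0757 in DDC hepatocytes, 37.2-fold (log2 difference 4.16, adjusted p = 1.37e-09).
Timp1 averaged 13.5 ± 4.62 scaled TPM in reprogrammed cells and 3.52 ± 2.14 in DDC hepatocytes (log2 difference 1.75, adjusted p = 0.00139). Mmp19 averaged 19.6 ± 1.54 scaled TPM in reprogrammed cells and 49.8 ± 12.2 in DDC hepatocytes (log2 difference -1.28, adjusted p = 0.000173). Mmp14 had a log2 difference of 0.62 (adjusted p = 0.00216) with groups that did not overlap, and passed with TPM as deposited (1.40) and with quantile normalization (1.04). Mmp15 had 0.54 (adjusted p = 0.289), and 1.15 without library 1 of the DDC hepatocytes (adjusted p = 0.00172), which passed.

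Against untreated hepatocytes, which share the reprogrammed libraries with the comparison above, 5 of the 7 genes were higher in reprogrammed cells and Mmp19 was lower, where 33.1% of all tested genes passed, 20.6% higher and 12.5% lower. Over the 7 genes the median log2 difference was 3.798, and it was 0.10 over all genes. Mmp14 averaged 125 ± 21.3 scaled TPM in reprogrammed cells and 24.8 ± 1.43 in untreated hepatocytes, 5.06-fold (log2 difference 2.28, adjusted p = 1.46e-08). Mmp15 had a log2 difference of 0.82 (adjusted p = 0.0915) and did not pass. DDC biliary cells against DDC hepatocytes gave 4 higher and 1 lower, where 34.6% of all tested genes passed, 20.2% higher and 14.4% lower. There Mmp7 had a log2 difference of 8.27 (adjusted p = 6.45e-12), Timp2 6.07, Timp3 5.11 and Timp1 1.95, and Mmp19 had -2.32 (adjusted p = 4.15e-07). Mmp14 had 0.54 (adjusted p = 0.00307), and 1.63 with TPM as deposited, which passed. Mmp15 had 0.66 (adjusted p = 0.162), and 1.28 without library 1 of the DDC hepatocytes (adjusted p = 0.000399), which passed.

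Reprogrammed cells were also set against biliary cells of DDC mice. Of the 7 genes tested, Mmp19 was higher in reprogrammed cells and Mmp7 was lower, where 3.51% of all tested genes passed, 2.78% higher and 0.734% lower. The median log2 difference was -0.21 over the 7 genes and -0.06 over all genes. Of the 10 biliary markers, none was higher, 3 were lower and 7 did not pass, with a median of -0.82. Of the 10 hepatocyte markers, 5 were higher, none was lower and 5 did not pass, with a median of 1.24. The part of these marker differences in those of the 7 genes was not tested. Mmp7 averaged 412 ± 31.8 scaled TPM in reprogrammed cells and 959 ± 96.9 in the DDC biliary cells (SD, n = 3 each), 0.430-fold, with a log2 difference of -1.21 (SE 0.17, limma adjusted p = 0.00320). Mmp19 averaged 19.6 ± 1.54 scaled TPM in reprogrammed cells and 9.10 ± 2.29 in the DDC biliary cells, 2.15-fold (log2 difference 1.05, SE 0.19, adjusted p = 0.00775).
Mmp19 did not pass without library 2 of the DDC biliary cells (0.99) or without library 3 (0.93). Timp2 and Timp3 were short of 1, with log2 differences of -0.79 (adjusted p = 0.0110) and -0.95 (adjusted p = 0.00648), and in both genes every reprogrammed library lay below every DDC biliary library. Both passed with TPM as deposited (-1.10 and -1.27) and with quantile normalization (-1.17 and -1.24), and Timp3 also without library 1 of the DDC biliary cells (-1.09). Mmp14 had a log2 difference of 0.08 with a 95% interval between -0.20 and 0.37, and Timp1 had -0.21 with an interval between -0.96 and 0.55. A fit of these 2 groups alone called 6 genes over the whole table and none of the 7, with adjusted p-values of 0.0833 for Mmp7 and 0.0890 for Mmp19. With TPM as deposited the sign for Mmp14 turned round (-0.23).

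The mixture of protease transcripts differed between the groups. Mmp7 made up between 65.4% and 71.1% of the summed scaled TPM of the 5 proteases in reprogrammed cells, 83% and 84.3% in the DDC biliary cells, 0.714% and 2.06% in DDC hepatocytes and 10.7% and 15.7% in untreated biliary cells, and was listed at 0 in untreated hepatocytes. Mmp14 made up between 34.4% and 56.7% of it in DDC hepatocytes, against 19.7% to 20.4% in untreated hepatocytes. Mmp19 made up between 24.7% and 34.9% in DDC hepatocytes and between 49.5% and 62.5% in untreated hepatocytes. In untreated biliary cells Mmp14 and Mmp15 held similar parts, with medians of 40.8% and 40.3%.
Among the 3 inhibitors Timp2 made up a median of 62.2% in reprogrammed cells, 62.5% in the DDC biliary cells, 22.3% in DDC hepatocytes and 87.1% in untreated biliary cells. Timp1 made up between 47.5% and 76.9% of the inhibitor sum in DDC hepatocytes. The summed level of the 3 inhibitors was between 99.1 and 135 scaled TPM in reprogrammed cells, 185 and 229 in the DDC biliary cells, 2.91 and 7.36 in DDC hepatocytes, 109 and 137 in untreated biliary cells, and 0.116 and 0.467 in untreated hepatocytes. Shares within so low a sum move widely, as in untreated hepatocytes, where Timp3 ran between 17.3% and 69.5%.

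**Figure D3:**
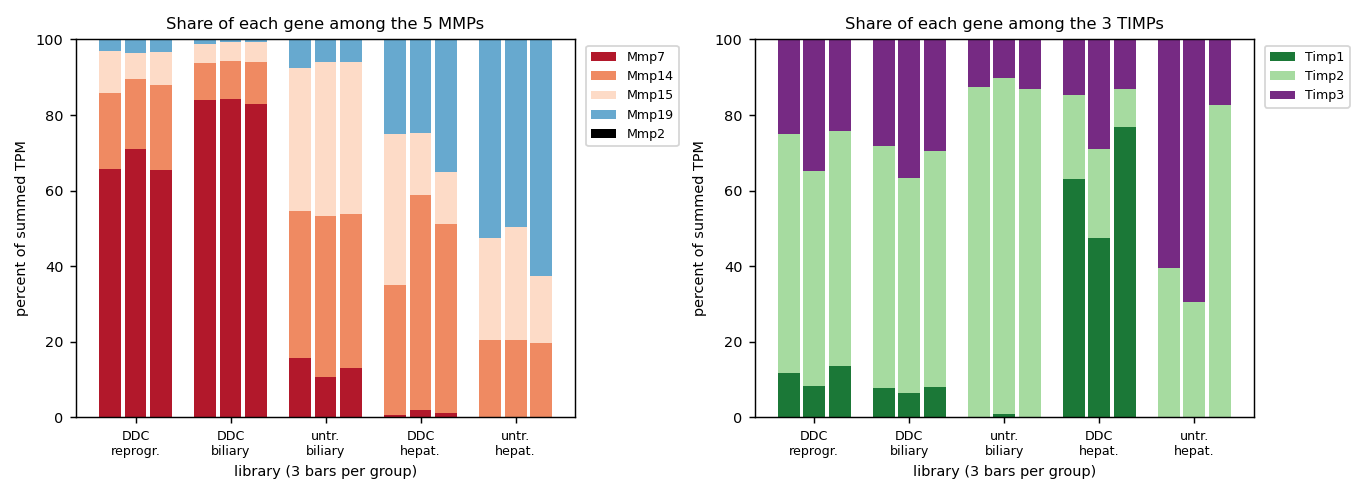
Shares of the summed scaled TPM of the 5 proteases and of the 3 inhibitors in each of the 15 libraries, grouped by cells and treatment. Mmp7 holds a median of 65.7% of the protease sum in reprogrammed cells and 83.9% in the DDC biliary cells, and Mmp19 a median of 52.5% in untreated hepatocytes.

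Each cell type also held some transcripts of markers of the other, and the members were set beside them. The mean of DDC hepatocytes, as a percentage of that of DDC biliary cells, was 0.225% for Mmp7, 0.710% for Timp2 and 1.36% for Timp3, and for the 10 biliary markers it lay between 0.140% and 20.3% with a median of 0.568%. It was 23.1% for Timp1, 68.3% for Mmp14 and 76.3% for Mmp15. In the other direction Mmp19 in reprogrammed cells stood at 39.3% of its level in DDC hepatocytes, where the 10 hepatocyte markers stood between 32.9% and 49.0%. Mmp19 in DDC biliary cells stood at 18.3% of its level in DDC hepatocytes, against 13.0% to 23.8% for the markers, and in untreated biliary cells at 17.3% of its level in untreated hepatocytes, against 14.9% to 23.6%. The part of hepatocyte transcripts in the Mmp19 levels of biliary and reprogrammed cells, and of biliary transcripts in the Mmp7, Timp2 and Timp3 levels of DDC hepatocytes, was not tested.

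**Figure D4:**
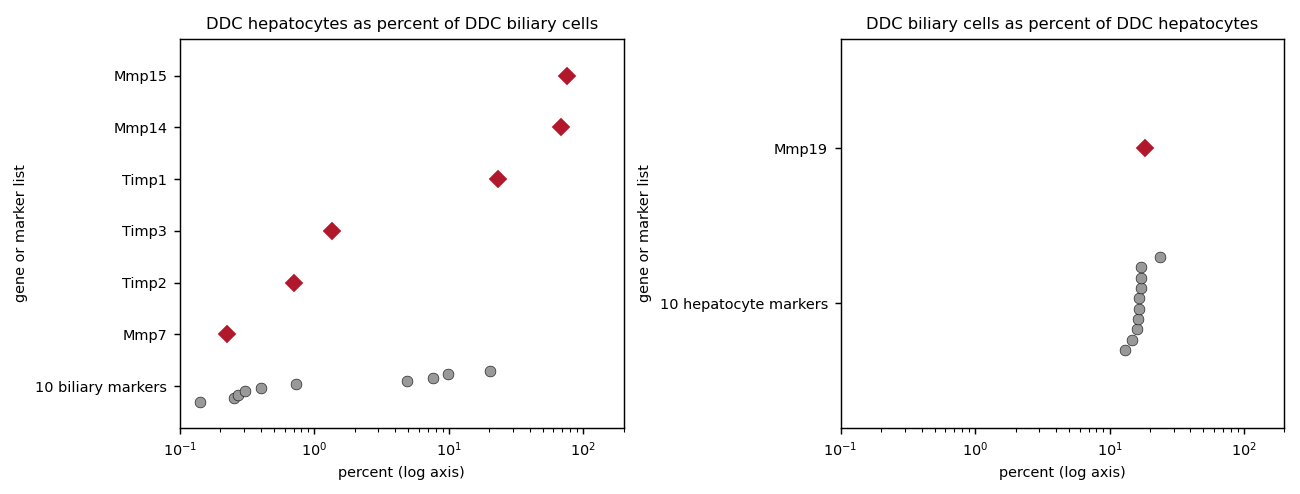
Group means as a percentage of the mean in the other cell type under DDC, on a log axis, with members as red diamonds and each marker gene as a grey circle, spread vertically for legibility. In DDC hepatocytes as a percentage of DDC biliary cells, Mmp7 at 0.225% and Timp2 at 0.710% lie among the biliary markers and Mmp14 at 68.3% lies above them, and in DDC biliary cells as a percentage of DDC hepatocytes Mmp19 at 18.3% lies within the range of the hepatocyte markers.

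Markers of other liver cells were also present. Summed over 16 genes, stellate cell and fibroblast markers were between 462 and 806 scaled TPM in reprogrammed cells, 808 and 1087 in the DDC biliary cells, 54.6 and 88.5 in DDC hepatocytes, 946 and 1000 in untreated biliary cells, and 13.6 and 21.8 in untreated hepatocytes. Most of that sum was Gas6 and Rgs5. The markers moved both ways between untreated and DDC biliary cells. Gas6 averaged 842 scaled TPM in untreated biliary cells and 439 in DDC biliary cells, and Rgs5 averaged 106 and 462. Reln averaged 13.4 scaled TPM in untreated biliary cells and 2.16 in DDC biliary cells. Col1a1 averaged 2.80 scaled TPM in reprogrammed cells, 3.78 in the DDC biliary cells, 0.832 in DDC hepatocytes, 0.314 in untreated biliary cells and 0.0330 in the untreated hepatocytes. Dcn averaged 16.1 scaled TPM in reprogrammed cells, 19.8 in the DDC biliary cells, with 43.5 in its highest library, 4.45 in DDC hepatocytes, 8.66 in untreated biliary cells and 0.776 in the untreated hepatocytes. Of the 11 stellate cell and fibroblast markers tested, 4 were higher and 1 was lower in DDC biliary cells against untreated ones, the comparison in which Timp1 rose. Of all tested genes 5.68% were higher and 4.74% lower there. In DDC hepatocytes against untreated ones 2 of the 11 were higher and none lower, where 6.59% of all tested genes were higher and 4.42% lower. Lum, Ngfr and Hand2 were listed at 0 in untreated hepatocytes. Summed over 12 genes, macrophage markers were between 77.9 and 108 scaled TPM in reprogrammed cells, 85.3 and 190 in the DDC biliary cells, 40.3 and 62.1 in DDC hepatocytes, 86.3 and 122 in untreated biliary cells, and 21.4 and 43.0 in untreated hepatocytes. The 12 endothelial markers summed to at most 32.0 scaled TPM in any library. The 12 markers of other leukocytes, mostly Cd74, summed to between 301 and 433 in DDC biliary cells and 112 and 202 in untreated biliary cells. Timp1, Mmp2 and Mmp14 are also known from stellate cells and macrophages, and the part of such cells in their levels was not tested.

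Further genes of the same system were taken from fixed lists, beginning with the rest of the family. Of 18 other matrix metalloproteinase genes, 4 were tested and the other 14 reached at most 0.876 scaled TPM in any library. In DDC biliary cells against untreated biliary cells 2 of these 4 were higher, where 5.68% of all tested genes were higher. They were Mmp12, which was at 0 in untreated biliary cells, and Mmp23. Mmp23 averaged 8.13 scaled TPM in DDC biliary cells and 0.887 in untreated biliary cells. Mmp11 and Mmp23 were the 2 of 4 that were higher in reprogrammed cells, with DDC hepatocytes below them. Of all tested genes 13.7% were higher by that test. Mmp11, stromelysin-3, averaged 12.9 ± 0.417 scaled TPM in untreated biliary cells against 0.116 ± 0.0768 in untreated hepatocytes (log2 difference 3.64, adjusted p = 1.50e-09). Mmp12 and Mmp23 were named after their values were seen. Timp4, the remaining TIMP, reached 8.50 scaled TPM in 1 library of DDC hepatocytes and passed in none of the comparisons between groups.
Of 10 other tested inhibitors, none was higher and 2 were lower in DDC biliary cells than in untreated biliary cells. None was higher and 1 was lower in DDC hepatocytes than in untreated hepatocytes. Of all tested genes 5.68% were higher and 4.74% lower in the first comparison, and 6.59% and 4.42% in the second. Tfpi2, a matrix-bound inhibitor of plasmin and other serine proteases, was lower in both. It averaged 8.15 ± 5.20 scaled TPM in DDC biliary cells and 28.3 ± 2.62 in untreated biliary cells, and 46.8 ± 12.3 in DDC hepatocytes and 162 ± 14.1 in untreated hepatocytes. The other inhibitor that was lower in DDC biliary cells was Spock3, named after its values were seen. In reprogrammed cells against DDC hepatocytes 1 of the 10 was higher and 3 were lower, where 13.7% of all tested genes were higher and 5.77% lower. The higher one, Pcolce, is known as an enhancer of procollagen processing and not as an inhibitor of matrix metalloproteinases.

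Among 16 activators and cofactors, all tested, 5 rose and none fell in DDC biliary cells against untreated biliary cells. Of all tested genes 5.68% rose and 4.74% fell there. Cd44, a hyaluronan receptor that holds Mmp7 and Mmp14 at the cell surface, averaged 215 ± 31.8 scaled TPM in DDC biliary cells and 3.22 ± 0.591 in untreated biliary cells (log2 difference 5.67). Plau, the urokinase that turns plasminogen into plasmin, averaged 47.0 ± 19.5 scaled TPM in DDC biliary cells and 0.253 ± 0.0439 in untreated ones (log2 difference 5.16). Plat, the tissue plasminogen activator, averaged 42.7 ± 16.3 scaled TPM in DDC biliary cells and 0.489 ± 0.325 in untreated ones. Plaur, the urokinase receptor, averaged 40.0 ± 11.8 scaled TPM in DDC biliary cells and 7.54 ± 6.43 in untreated ones. Adjusted p-values of these 4 were between 6.35e-08 and 0.00168.
Over the 16 genes the median log2 difference was 0.28, and it was -0.02 over all genes. In DDC hepatocytes against untreated hepatocytes 5 of the 16 rose and none fell, where 6.59% of all tested genes rose and 4.42% fell. The rule for named genes gave Tmprss2, a membrane serine protease, at 27.4 ± 0.266 scaled TPM in DDC hepatocytes against 3.94 ± 1.008 in untreated ones. In reprogrammed cells against DDC hepatocytes 6 of the 16 were higher and 4 lower, where 13.7% of all tested genes were higher and 5.77% lower. Cd44 was at 127 ± 25.7 scaled TPM in reprogrammed cells against 5.22 ± 3.37 in DDC hepatocytes. St14, matriptase, was at 59.7 ± 9.06 scaled TPM in reprogrammed cells against 5.40 ± 6.07 in DDC hepatocytes. Plg, plasminogen itself, was higher in reprogrammed cells than in DDC biliary cells, at 661 ± 319 scaled TPM against 269 ± 117 in DDC biliary cells (adjusted p = 0.0245), beside the higher hepatocyte markers of the reprogrammed cells.

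Of the related proteases, 1 of 7 tested ADAM genes rose and 1 fell in DDC biliary cells against untreated biliary cells. Of all tested genes 5.68% rose and 4.74% fell there. Adam8, a leukocyte and epithelial sheddase, averaged 21.4 ± 7.67 scaled TPM in DDC biliary cells and 0.775 ± 0.193 in untreated biliary cells, and Adam33 averaged 8.27 ± 1.21 in DDC biliary cells and 33.3 ± 12.2 in untreated ones. Of 11 ADAMTS genes, which cut proteoglycans and procollagens, 3 rose and 1 fell in that comparison. Set against DDC hepatocytes, reprogrammed cells had 6 of them higher and none lower, where 13.7% of all tested genes were higher and 5.77% lower. Adamts9 averaged 25.3 ± 8.06 scaled TPM in reprogrammed cells and 0.264 ± 0.136 in DDC hepatocytes (log2 difference 4.34, adjusted p = 4.18e-09).
Of 22 matrix substrates 10 rose and 1 fell in DDC biliary cells against untreated biliary cells, where 5.68% of all tested genes rose and 4.74% fell. The median log2 difference was 0.71 over the list and -0.02 over all genes. Nid1, nidogen of the basement membrane, averaged 38.3 ± 11.6 scaled TPM in DDC biliary cells and 0.611 ± 0.0532 in untreated biliary cells, and 116 ± 26.1 in DDC hepatocytes and 0.256 ± 0.0482 in untreated hepatocytes. Lamb3, a chain of epithelial laminin-332, averaged 63.5 ± 10.8 scaled TPM in DDC biliary cells and 6.73 ± 3.37 in untreated biliary cells, and Lamb2 averaged 25.6 ± 4.22 in DDC biliary cells and 74.7 ± 2.40 in untreated ones. In DDC hepatocytes against untreated hepatocytes 6 of the 22 rose and none fell, where 6.59% of all tested genes rose and 4.42% fell. In reprogrammed cells against DDC hepatocytes 11 were higher and 1 lower, where 13.7% of all tested genes were higher and 5.77% lower. Hspg2, the basement membrane proteoglycan perlecan, averaged 26.5 ± 5.79 scaled TPM in reprogrammed cells and 0.548 ± 0.286 in DDC hepatocytes.

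Among transcription factors and cytokines known to induce these genes, Ets1 binds ETS sites such as the PEA3 letters marked in the promoters. It averaged 23.4 ± 5.30 scaled TPM in reprogrammed cells, 32.3 ± 6.75 in the DDC biliary cells, 1.73 ± 0.512 in DDC hepatocytes and 4.98 ± 0.210 in untreated biliary cells, with a mean of 0.326 in untreated hepatocytes. Ets1 rose in DDC biliary cells against untreated biliary cells (log2 difference 2.46, adjusted p = 1.74e-06). Etv4 and Etv5, ETS factors of the PEA3 subfamily on the same list, fell in that comparison. Etv5 averaged 7.51 ± 1.15 scaled TPM in DDC biliary cells and 35.2 ± 3.93 in untreated ones (log2 difference -2.09, adjusted p = 9.13e-06), and Etv4, named after its values were seen, averaged 4.27 in DDC biliary cells and 13.6 in untreated ones (log2 difference -1.47). Ets1 was also the gene whose pattern over the 15 libraries was most like that of Mmp7, with a Pearson r of 0.993. This was among 10150 genes with a mean of at least 5 scaled TPM. The 15 libraries share their 5 groups, so these values of r mostly describe group levels. Whether Ets1 acts on Mmp7 was not tested.
The next 4 genes for Mmp7 were Msn, Pmepa1, Wfdc18 and Wnt7b, with r of 0.988 to 0.989. The gene most like Mmp14 was F11r, a tight junction protein, with r of 0.997, and that most like Mmp19 was Urod, an enzyme of heme synthesis, with 0.995. Pitpna was most like Timp1, with 0.977, and Plat and Ccl2 were among its 5 nearest. Trim35 and Tmem132a were most like Timp2, with 0.999 each, and Plekhs1, Akr1b8 and Lamb1 most like Timp3, with 0.996 each. Dync1li1 was most like Mmp15, with 0.945, and Mta2 most like Mmp2, with 0.905. Among the members, Mmp7 and Timp3 had an r of 0.976 and Timp2 and Timp3 of 0.957.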

How the data were processed

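The authors deposited gene TPM, made with Salmon on mouse build mm10 per the submitters' processing notes. The sources used here do not give the version of Salmon. Total RNA had been prepared from sorted liver cells with the Qiagen RNeasy micro kit, per the labels' protocols. Columns of the deposited table were matched to 15 libraries by title.

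Genes with at least 1 TPM in at least 3 libraries were kept, 13905 of the 24493 deposited. Each library was divided by its median ratio to the geometric mean over the 11924 of these genes above 0 in every library. Log2(scaled TPM + 1) was fitted with limma 3.58.1 in R 4.3.3, 5 groups in 1 fit with a mean-variance trend, 10 residual degrees of freedom and Benjamini-Hochberg adjustment. A log2 difference on this scale understates the change of low genes. Tests made for counts were not used, since TPM as deposited keep no depth. The fit was run on simulated data with large shifts in genes well above 0, which says nothing of genes near 0 or of differences near 1. Depth is unknown, so no counting interval is given.

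Members, lists and tests were chosen with earlier results of these data known. The members are all named. From each further list and comparison, up to 4 genes past the test could be named, those of largest difference whose groups did not overlap and whose higher mean reached 10 scaled TPM. The text gives a selection of them. For likeness the 5 genes with the highest Pearson r were taken. Alternatives were the deposited TPM unscaled, quantile normalization, pseudocounts, other filters, only the compared groups, sample weights, no trend, the adjusted p alone, the replicate number as a block and each library left out. Same-numbered libraries of some groups deviated together, with every correlation of deviations over 0.1. These were untreated biliary cells with untreated hepatocytes (0.15 to 0.24), reprogrammed cells with DDC hepatocytes (0.14 to 0.45) and reprogrammed with DDC biliary cells (0.21 to 0.46). The numbers were therefore taken as pairs within treatment in an alternative fit, and the fit reported held no block. DDC biliary cells with DDC hepatocytes ran from 0.044 to 0.32 and were paired in that alternative too. Libraries of different numbers were not compared in this way. Promoters are from RefSeq, build GRCm38.p6, and positions from GENCODE M21.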

Additional observations from a re-analysis of the deposited data

Results flagged for a closer look

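The DDC response of biliary cells differed from that of hepatocytes for 3 of the 7 tested genes, by a test of the difference itself that 8.4% of all tested genes passed. For Mmp7 it was larger in biliary cells by 3.64 on the log2 scale. For Timp3 it was larger in biliary cells by 1.38 on this scale, though the ratio of DDC to untreated means was 4.38 in biliary cells and 4.99 in hepatocytes. For Mmp14 the difference was -1.01, a smaller response in biliary cells than in hepatocytes. Each was lost under a setting. With a pseudocount of 0.1 the difference was 0.88 for Mmp7 and 0.13 for Timp3, and with quantile normalization it was -0.52 for Mmp14.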

How the results depend on the processing

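Over the 56 results of single genes, 27 kept their direction and side of the threshold under every setting run. Of their 1018 alternative values, 950 stayed, 30 newly passed, 21 no longer passed and 17 changed sign. With the replicate number as a block all 56 gene results stayed, for example Mmp7 in reprogrammed against DDC biliary cells at -1.21. The pairing within treatment was run for 28 gene results, and all 28 stayed. Genes called over the whole table were, for TPM as deposited, 7820 for untreated biliary cells against hepatocytes, 4249 for reprogrammed cells against DDC hepatocytes and 7787 for DDC biliary cells against DDC hepatocytes. With a pseudocount of 5 they were 3371, 1482 and 3023 for these 3, 298 for reprogrammed against DDC biliary cells, 797 and 750 for the DDC responses of hepatocytes and biliary cells, 2765 for reprogrammed cells against untreated hepatocytes and 582 for the interaction. In that sequence the adjusted p alone gave 9298, 6620, 9095, 2053, 3898, 3638, 8802 and 1780. A pseudocount of 0.1 gave 2330 for the DDC response of hepatocytes. For reprogrammed against DDC biliary cells, against 488 in the fit reported, a fit of these groups alone gave 6, sample weights 804 and leaving out a library 103 (DDC biliary library 3) to 832 (reprogrammed library 1), with 137 without reprogrammed library 2. With quantile normalization genes higher and lower numbered 1954 and 2317 for untreated biliary cells against hepatocytes, 1918 and 2216 for DDC biliary cells against DDC hepatocytes, 1852 and 1877 for reprogrammed cells against untreated hepatocytes, and 391 and 177 for reprogrammed against DDC biliary cells.

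Members called in reprogrammed against DDC biliary cells, 2 in the fit reported, were 4 with quantile normalization, 1 with a pseudocount of 5, 0 with these groups alone, 4 by the adjusted p alone and 1 to 3 with a library left out. In the DDC response of hepatocytes, 3 in the fit reported, they were 5 with a pseudocount of 0.1, 1 with a pseudocount of 5 and 5 by the adjusted p alone. Signs that turned belonged to differences that had not passed. For reprogrammed against DDC biliary cells Mmp14 had -0.23 as deposited, -0.24 with quantile normalization, -0.034 without DDC biliary library 1 and -0.055 without reprogrammed library 3, Timp1 had 0.063 with sample weights and 0.092 without reprogrammed library 2, and Mmp15 had 0.046 without that reprogrammed library. For the interaction Mmp19 had -0.067 as deposited, -0.076 with quantile normalization, -0.064 with sample weights, -0.064 without DDC biliary library 1 and -0.10 without DDC hepatocyte library 2, Timp1 had -0.16 with a pseudocount of 0.1, Timp2 had 0.021 with a pseudocount of 5, and Mmp15 had 0.046 without DDC hepatocyte library 1. For the DDC response of hepatocytes Mmp15 had -0.060 with sample weights and -0.34 without that library. Over the libraries left out one at a time, the highest or lowest value at the other end was 0.19 for Mmp14 and -0.37 for Timp1 in reprogrammed against DDC biliary cells, -0.90 for Mmp15 and 0.25 for Mmp19 in the interaction, and 0.60 for Mmp15 in the DDC response of hepatocytes. The cause of these changes was not tested.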

Other observations

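Of 19 tested genes whose proteins are cut from the cell surface by sheddases, 3 rose, 2 fell and 14 did not pass in DDC biliary cells against untreated biliary cells, where 5.68% of all tested genes were higher and 4.74% lower. Tnf, an inflammatory cytokine released by ADAM17, averaged 27.5 ± 0.826 scaled TPM in DDC biliary cells and 0.876 ± 0.122 in untreated biliary cells (log2 difference 3.93, limma adjusted p = 1.35e-09). In DDC hepatocytes against untreated hepatocytes 4 rose, 2 fell and 13 did not pass, where 6.59% of all tested genes were higher and 4.42% lower. Egfr, the receptor for shed EGF-family ligands, averaged 60.8 ± 19.7 scaled TPM in DDC hepatocytes against 367 ± 138 in untreated ones.

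Of 23 tested inducers, 8 rose, 6 fell and 9 did not pass in DDC biliary cells against untreated biliary cells, where 10.4% of all tested genes passed either way. In DDC hepatocytes against untreated hepatocytes 7 rose, 1 fell and 15 did not pass, where 11% of all tested genes passed. Lifr, the receptor of leukaemia inhibitory factor, averaged 13.2 ± 1.55 scaled TPM in DDC biliary cells and 64.0 ± 21.3 in untreated biliary cells, and 25.1 ± 4.04 in DDC hepatocytes and 303 ± 102 in untreated hepatocytes. Its ligand Lif averaged 11.8 ± 3.21 scaled TPM in DDC biliary cells and 2.17 ± 0.696 in untreated biliary cells. Tnfrsf12a, the receptor of the cytokine TWEAK, averaged 156 ± 22.8 scaled TPM in DDC hepatocytes and 16.8 ± 1.34 in untreated hepatocytes.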
